A study of Mus musculus with 22 samples.

Results

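Transcript levels of 9 receptors that hold haematopoietic stem cells (HSCs) in the bone marrow, or bring them back to it, were measured by bulk RNA sequencing. The 9 genes were the integrin alpha chains Itga4, Itga5, Itga6 and Itgal, the integrin beta chains Itgb1 and Itgb2, the chemokine receptor Cxcr4, the hyaluronan receptor Cd44 and the selectin ligand Selplg. They were taken by symbol, after Ensembl identifiers without their version had been matched to mouse gene names, and all 9 were found among the 55416 genes of the files. All 9 also passed the filter on low counts, which 17366 genes passed. No cut-off on expression entered the selection, but the genes were chosen with earlier results of these data known.

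The 22 libraries came from 11 mice, whose strain and genotype are not given in the sources used here. Femur and tibia marrow was depleted of lineage-marked cells, and lineage-negative Sca1+ Kit+ CD150+ CD48- HSCs were sorted by the leptin receptor (LEPR) on their surface. Mice 1 to 4 were young, at 2 to 3 months, and mice 5 to 11 middle-aged, at 12 to 15 months; no treatment is named. Each mouse gave 1 LEPR+ and 1 LEPR- library, so that there were 4 young LEPR+, 4 young LEPR-, 7 middle-aged LEPR+ and 7 middle-aged LEPR- libraries. There were 2 males at each age.

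HSCs are kept in marrow by several kinds of contact. Integrins are pairs of 1 alpha and 1 beta chain, and the beta chain Itgb1 joins Itga4, Itga5 or Itga6 to bind the vascular adhesion molecule VCAM1 and fibronectin, fibronectin alone, or laminin. Itgb2 joins Itgal to make the leukocyte integrin that binds ICAM proteins. Cxcr4 senses the chemokine Cxcl12 that stroma secretes, Cd44 binds hyaluronan, and Selplg carries the sugar chains that P-selectin and E-selectin on vessel walls catch during homing. RNA levels say nothing of whether these receptors sit on the surface or are in their binding form.

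Library size, the sum over genes, ran from 10.3 to 61.7 in units of 1000000 counts. The 13 HSC marker genes had counts in all 4 groups, with a summed level between 2071 and 5699 CPM (counts per 1000000, scaled by edgeR's TMM factors). Slamf1, the gene of CD150, ran from 0 to 89.7 CPM in young and from 60.4 to 162 CPM in middle-aged libraries. Cd48 had 925 and 1465 counts in young LEPR+ and LEPR- libraries, against 113 and 156 in middle-aged ones. Flt3, a progenitor marker, reached 117 CPM in young LEPR- libraries and at most 17.7 CPM in the other groups. The part of these differences in the age comparisons was not tested. The median log2 fold change (LEPR+ minus LEPR-) of 8 tested neutrophil markers was -6.30 in young mice, and edgeR called 0 of them. Of these, 2 were positive and 6 negative, and their summed levels overlapped (297 to 497 CPM in LEPR+, 282 to 1144 CPM in LEPR- libraries). The same median was 6.22 for 7 endothelial markers (6 positive, 1 negative, 1 called). For 6 markers of LEPR+ stroma it was 5.80 (5 positive, 1 negative, 0 called). The part of such cells in the receptor levels was not tested. Lepr itself had 1 count in each young group and 428 and 254 counts in the middle-aged LEPR+ and LEPR- groups, so its RNA does not check the sort. The drop-out share, the percent of 6764 genes with a mean of 10 to 100 CPM that held 3 counts or fewer in a library, was 8.59 to 15.4% for the LEPR+ and 14.7 to 27.6% for the LEPR- libraries of young mice. For those of middle-aged mice it was 0.103 to 19.4% (LEPR+) and 0.0591 to 9.03% (LEPR-), where the highest value of each group belonged to mouse 6. Both libraries of mouse 6 and the LEPR+ library of mouse 5, with a drop-out share of 5.19%, stood apart from the other middle-aged libraries, and results that change without them are given both ways.

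No receptor of the 9 differed between groups by edgeR's quasi-likelihood test in any of 5 comparisons, with p adjusted over all tested genes and called under 0.05. Between LEPR+ and LEPR- HSCs of young mice 0 of 9 were called, beside 0.599% of all tested genes, and the lowest adjusted p of the 9 was 0.864 (Cxcr4). Of all genes, 104 were called there and 25 with the mouse as a block. Between the fractions of middle-aged mice 0 of 9 were called, beside 0% of all genes. There edgeR called 0 genes, or 1 with the block, 152 genes had an unadjusted p under 0.05, and DESeq2 called 1. Between ages 0 of 9 were called in LEPR+ HSCs, beside 0.173% of all genes, and 0 of 9 in LEPR- HSCs, beside 3.84%. In the test of whether the LEPR difference itself differed between ages 0 of 9 were called, beside 0.236% of all genes (41 genes, or 7 with the block). At an unadjusted p under 0.05 only Itgal passed, in both age comparisons, 1 of 9 beside 19.7% of all tested genes in LEPR+ and 28.01% in LEPR- HSCs. As all samples are bulk RNA, fewer cells of a type and less RNA per cell cannot be told apart in any level below.

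**Figure D1:**
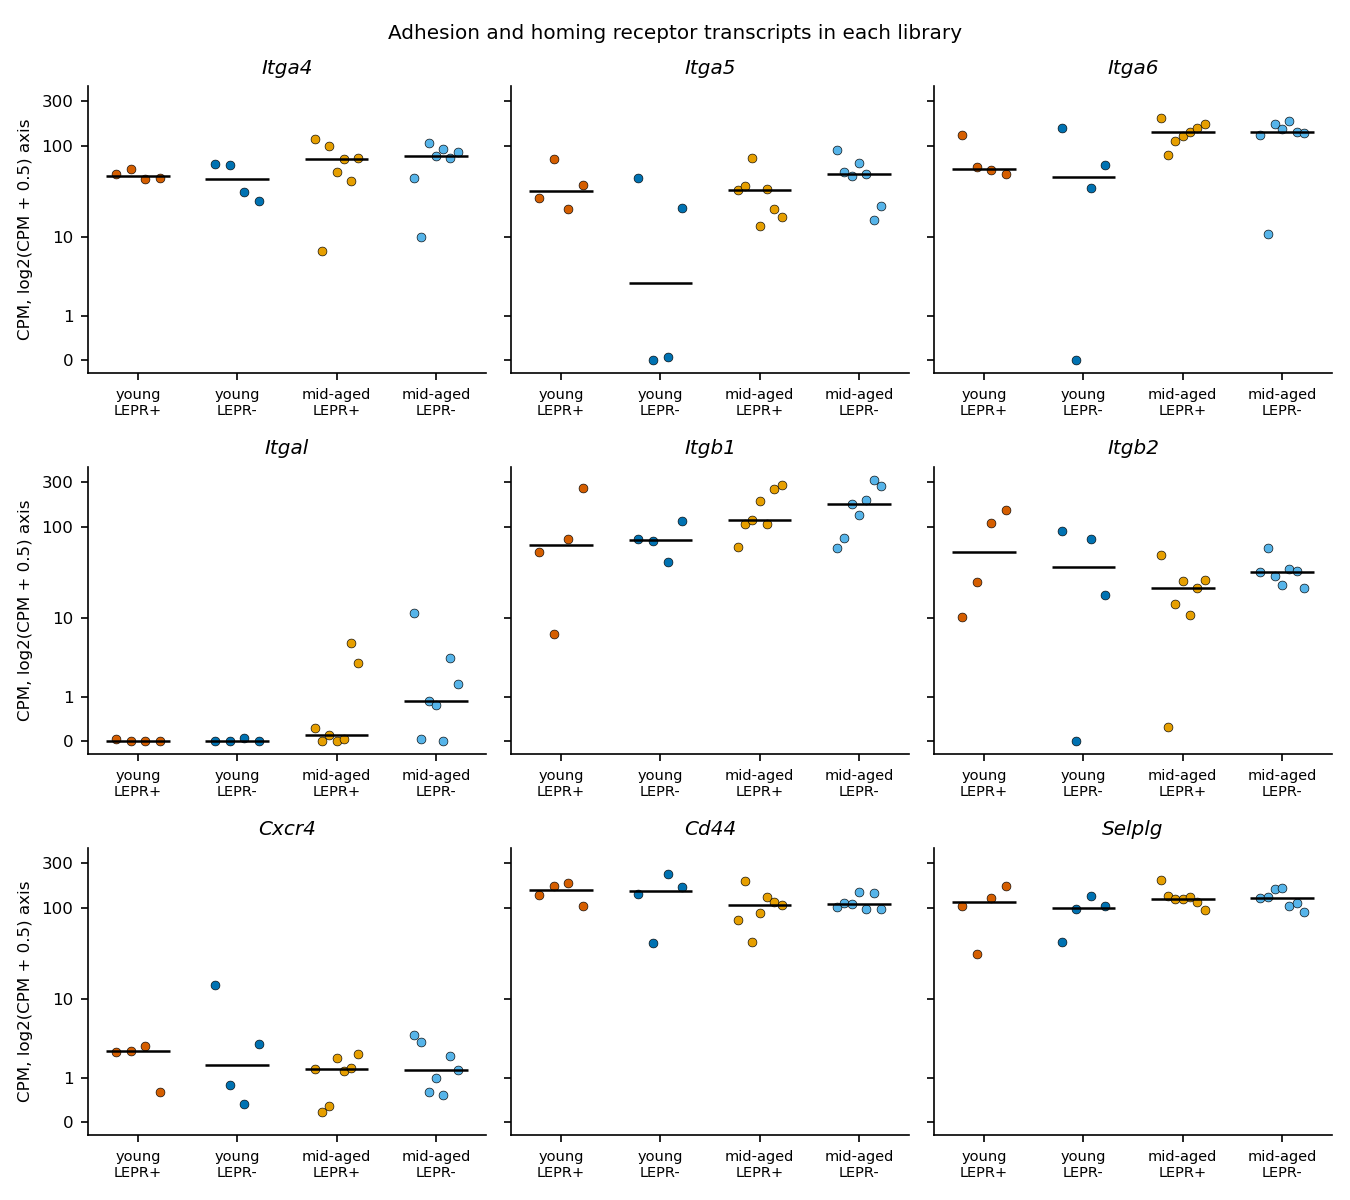
CPM of the 9 receptor genes in each library (points, in order of mouse number) by group, on a log2(CPM + 0.5) axis; bars are medians of the log values. Selplg and Cd44 stay within a narrow band, Itgal is near 0 in all 8 young libraries, and single young LEPR- libraries drop to 0 for Itga5, Itga6 and Itgb2.

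Relative to their length, the transcripts of Selplg were the most abundant of the 9 and those of Itgal the least. The median level over all 22 libraries, in CPM per kilobase of merged exons, was 29.2 for Selplg, 18.7 for Itgb1, 16.7 for Cd44, 11.5 for Itga6, 8.07 for Itgb2, 6.27 for Itga5, 3.51 for Itga4, 0.761 for Cxcr4 and 0.00468 for Itgal. The ranges over libraries overlapped between all neighbours in this order. The order differed between ages: by group median, Cd44, Itgb2 and Itgb1 held ranks 2, 3 and 4 in both young groups, and Itgb1, Cd44 and Itgb2 ranks 2, 3 and 5 in both middle-aged groups, while Selplg was first and Itgal last in all 4. By mean level per kilobase, Selplg stood at the 90.6th percentile of all tested genes, Cxcr4 at the 35.9th and Itgal at the 9.04th. With the length of the canonical transcript in place of merged exons, a choice made after seeing the data, Itga6 moved to rank 2 (29.7 CPM per kilobase), Itgb1 to rank 3 (22.2) and Cd44 to rank 4 (20.04), and the other 6 kept their ranks.

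**Figure D2:**
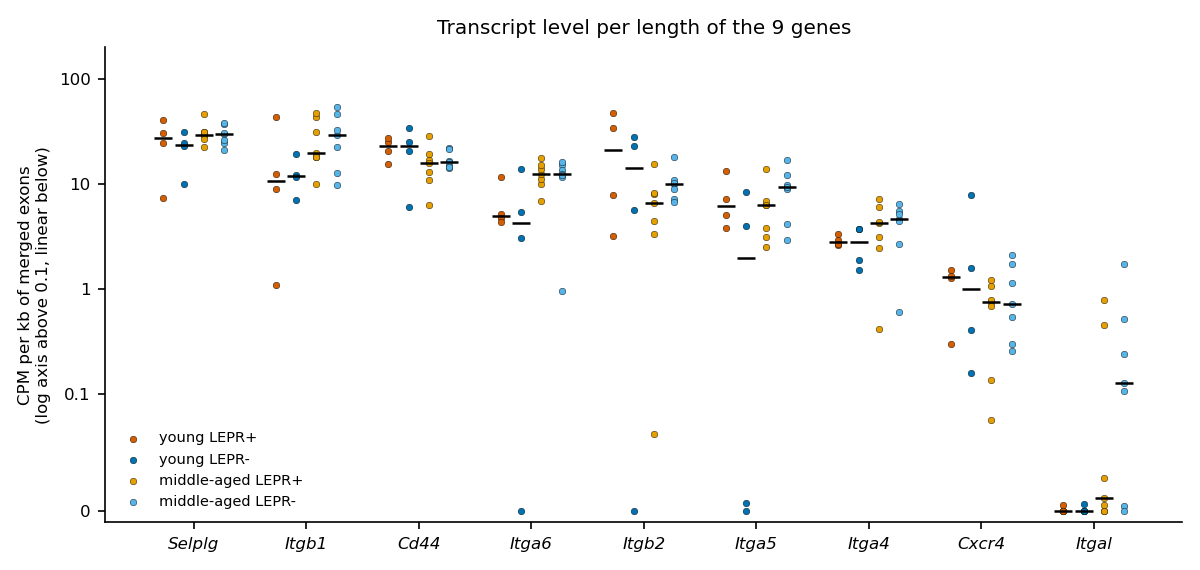
Level per kilobase of merged exons of each gene in every library, coloured by group, with group medians as bars; the axis is logarithmic above 0.1 CPM per kilobase and linear below. Genes are ordered by their median over all 22 libraries, from Selplg at 29.2 down to Itgal at 0.00468, and ranges of neighbouring genes overlap.

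Itgal, the alpha chain of the leukocyte integrin (ENSMUSG00000030830.19, GRCm39, chr7:126895432-126934320, plus strand), was nearly absent from young HSCs and present in some middle-aged ones. Both young groups held 1 count in all, in the LEPR+ library of mouse 1 and the LEPR- library of mouse 3. The LEPR+ libraries of middle-aged mice 5 to 11 held 5, 0, 3, 0, 2, 181 and 84 counts, and their LEPR- libraries held 347, 1, 35, 28, 0, 104 and 77. Mice 10 and 11 were high in both fractions, and mouse 5 was high in LEPR- cells only. Genes with any count numbered 21172 and 22972 in the LEPR+ and 21015 and 24523 in the LEPR- libraries of mice 10 and 11. Young libraries had 13456 to 15406 (LEPR+) and 12424 to 15197 (LEPR-). The LEPR- library of mouse 5 had 16946. The part of gene detection in the Itgal counts was not tested. In all, 3 of 7 middle-aged LEPR+ and 5 of 7 middle-aged LEPR- libraries had more than 3 counts, and the groups overlapped at 0 or 1 count. Scaled by library size, the pooled count of the middle-aged group was 117 times that of the young group in LEPR+ HSCs (exact 95% counting interval 20.8 to 4639) and 274 times in LEPR- HSCs (48.9 to 10825). These intervals treat pooled reads as independent, although PCR copies of a molecule are not told apart and a few libraries hold most reads. They thus cover counting error at most, and are no bound over mice or libraries.

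The test over libraries did not call the age difference of Itgal. This gene passed the filter on low counts only through middle-aged libraries, and was then tested for being higher there. The fitted log2 fold change was 6.56 ± 2.42 (SE; edgeR adjusted p 0.169) in LEPR+ HSCs and 7.63 ± 2.53 (edgeR adjusted p 0.0783) in LEPR- HSCs, and with 1 young count these values depend on the prior count. Without both libraries of mouse 6 and the LEPR+ library of mouse 5, the LEPR- difference was called (7.86, edgeR adjusted p 0.0357). DESeq2 called it in LEPR+ HSCs (6.69, adjusted p 0.0196) and in LEPR- HSCs (8.00, adjusted p 0.00162). With drop-out share as a covariate the LEPR- value was 0.013. Over all alternatives the adjusted p ran from 0.0196 to 0.886 in LEPR+ and from 0.00162 to 1 in LEPR- HSCs. Of the 9 T and NK cell markers, 2 had any count in LEPR+ and 5 in LEPR- libraries of young mice, with summed levels of 43.7 to 130 and 130 to 283 CPM. In middle-aged mice these were 8 and 5 markers, at 99.0 to 144 and 99.4 to 266 CPM. The middle-aged LEPR- library of mouse 5, highest in Itgal, stood at 186 CPM for that list and the LEPR+ library of mouse 10 at 128 CPM. Of 10 macrophage and monocyte markers 7 had any count in each young and 9 in each middle-aged group, and Marco was at 0 in all 4. Their summed level was 0.213 to 44.8 CPM in middle-aged LEPR+ and 3.34 to 48.8 CPM in middle-aged LEPR- libraries, and its 3 highest middle-aged values belonged to the 3 libraries with most Itgal counts (LEPR- of mouse 5, 32.4 CPM, and LEPR+ and LEPR- of mouse 10, 44.8 and 48.8 CPM). In young libraries, with 0 or 1 Itgal count, it was 17.9 to 86.4 CPM (LEPR+) and 0.937 to 150 CPM (LEPR-). The LEPR+ library of mouse 10 was also the highest of all 22 in the sum of 8 B cell markers, at 379 CPM. That sum was 74.0 to 115 CPM in the other 6 middle-aged LEPR+, 49.5 to 138 CPM in middle-aged LEPR-, and 90.8 to 167 and 68.2 to 224 CPM in young LEPR+ and LEPR- libraries. The part of T, NK, B or myeloid cells in the Itgal counts was not tested.

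Itgb2, the partner of Itgal (ENSMUSG00000000290.14, chr10:77366086-77401542, plus strand), was measured in nearly every library, Itgal counts or not. Young LEPR+ libraries of mice 1 to 4 had 10.4, 25.3, 111 and 151 CPM and young LEPR- libraries 89.7, 0, 74.2 and 18.1 CPM. Middle-aged LEPR+ libraries ranged from 0.213 CPM (mouse 6) over a median of 21.3 to 49.9 CPM, and middle-aged LEPR- libraries from 21.8 over a median of 32.3 to 58.3 CPM (mouse 6). The highest libraries were young and the middle-aged ones lay inside or below the young range. The age difference was a log2 fold change of -1.81 ± 1.05 (edgeR adjusted p 0.374) in LEPR+ and -0.46 ± 1.06 (adjusted p 0.847) in LEPR- HSCs. Without the young LEPR- library of mouse 1 the LEPR- value was 0.082. The LEPR+ and LEPR- libraries of a young mouse differed widely and in both directions, since mouse 1 had 10.4 and 89.7 CPM and mouse 4 had 151 and 18.1 CPM.

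Itgb1, the shared beta chain of the fibronectin, VCAM1 and laminin integrins (ENSMUSG00000025809.16, chr8:129411876-129460618, plus strand), had its highest libraries in middle-aged mice. Young LEPR+ libraries of mice 1 to 4 had 53.8, 6.51, 73.4 and 259 CPM and young LEPR- libraries 73.0, 69.3, 42.0 and 114 CPM. Middle-aged LEPR+ libraries ran from 59.7 over a median of 118 to 284 CPM and middle-aged LEPR- libraries from 58.6 over a median of 174 to 318 CPM. In LEPR- HSCs 5 of 7 middle-aged libraries lay above all young ones, and in LEPR+ HSCs 1 of 7 did, because mouse 4 was high. The share of all tested genes with such counts was not determined. The age difference was 1.23 ± 0.66 on the log2 scale in LEPR- HSCs (edgeR adjusted p 0.231, 95% interval of the fold 0.91 to 6.06) and 0.71 ± 0.64 in LEPR+ HSCs (adjusted p 0.660, 0.647 to 4.12). Neither passed the threshold.

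The Itgb1 levels of the LEPR+ and LEPR- fractions were compared over the middle-aged mice. Mouse 5 was lowest in both, at 59.7 CPM in LEPR+ and 58.6 CPM in LEPR- cells, and mice 10 and 11 were highest, at 258 and 284 CPM in LEPR+ and 318 and 273 CPM in LEPR- cells. Over these 7 mice Pearson's r of log2(CPM + 0.5) was 0.826 (exact permutation p 0.0254, two-sided) and Spearman's rho 0.714 (exact permutation p 0.0881). Adjusted over the 9 genes the values were 0.229 and 0.264, so that the relation did not pass, and r was 0.605 without the 2 mice farthest from the median, mice 5 and 6. No other gene passed the adjustment either. Over all tested genes the fractions of a mouse also correlated most in mice 10 and 11 (r 0.475 and 0.656, deviations from group means). Likeness of the fractions in these mice is thus not particular to Itgb1.

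**Figure D3:**
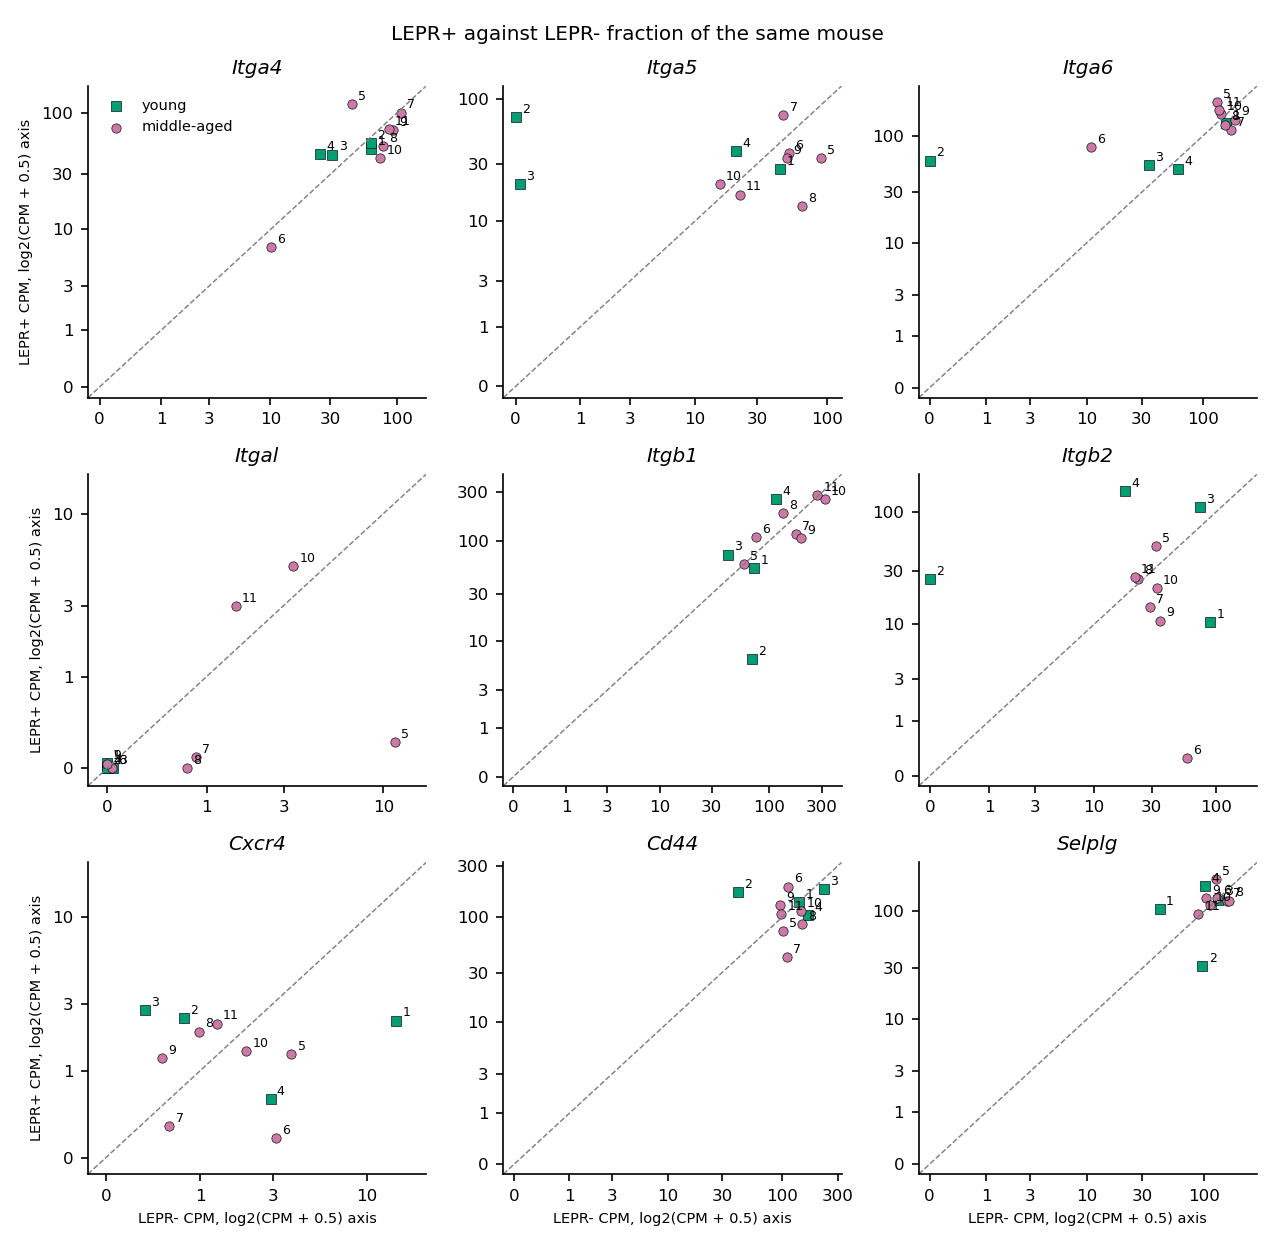
LEPR+ against LEPR- level of each gene in the same mouse (numbered), both on log2(CPM + 0.5) axes, with squares for young and circles for middle-aged mice; the dashed line marks equal levels. For Itgb1 the middle-aged mice run from mouse 5 as the lowest to mice 10 and 11 as the highest, a relation that did not pass adjustment. Young mice stand far from the line for Itgb2, Itga5 and Cxcr4.

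Itga6, the laminin-binding alpha chain (ENSMUSG00000027111.17, chr2:71575960-71689757, plus strand), had a middle-aged median of 140 CPM in each fraction. Young LEPR+ libraries had 131, 59.0, 54.0 and 49.5 CPM and young LEPR- libraries 156, 0, 34.6 and 61.2 CPM, where mouse 1 was the highest in both fractions. Middle-aged LEPR+ libraries ranged from 78.7 (mouse 6) to 201 CPM and middle-aged LEPR- libraries from 10.9 (mouse 6) to 184 CPM. The other 6 middle-aged LEPR- mice lay at 131 CPM or above. The groups overlapped through mouse 1 and mouse 6. The age difference was a log2 fold change of 0.94 ± 0.89 (edgeR adjusted p 0.678) in LEPR+ and 1.07 ± 0.90 (adjusted p 0.495) in LEPR- HSCs. With drop-out share as a covariate the LEPR- value turned to -0.87 (adjusted p 0.952), and 12 of the 14 middle-aged libraries, all but those of mouse 6, had a drop-out share below that of every young library.

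Itga4, whose pair with Itgb1 binds VCAM1 on marrow stroma (ENSMUSG00000027009.19, chr2:79085660-79163467, plus strand), was steady in young LEPR+ libraries at 49.0, 55.4, 44.1 and 44.8 CPM. Young LEPR- libraries had 62.7, 62.1, 31.2 and 25.1 CPM. Middle-aged LEPR+ libraries ranged from 6.96 (mouse 6) over a median of 71.4 to 119 CPM (mouse 5), and middle-aged LEPR- libraries from 10.0 (mouse 6) over a median of 77.7 to 107 CPM (mouse 7). In LEPR+ HSCs 4 of 7 middle-aged libraries lay above and 2 below all young ones, and in LEPR- HSCs 5 lay above and 1 below. No such count was made for all tested genes. The log2 age difference was 0.46 ± 0.57 (edgeR adjusted p 0.782) and 0.63 ± 0.57 (adjusted p 0.538). It turned to -0.51 and -1.65 with drop-out share as a covariate. Cerkl, on the other strand, overlaps 3481 bases, or 20.8%, of the exons of Itga4, and the strand setting of the counting is not given in the sources used here, so the Itga4 counts are uncertain.

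Itga5, the fibronectin receptor chain (ENSMUSG00000000555.9, chr15:103252713-103275270, minus strand), was missing from some young LEPR- libraries. These had 44.4, 0, 0.0361 and 20.9 CPM in mice 1 to 4, beside 26.96, 71.0, 20.3 and 37.7 CPM in the young LEPR+ libraries of the same mice. Mouse 2 was thus the highest of its group in LEPR+ and at 0 in LEPR- cells. Middle-aged LEPR+ libraries ran from 13.4 over a median of 33.2 to 74.0 CPM and middle-aged LEPR- libraries from 15.5 over a median of 49.8 to 90.0 CPM. The log2 difference of LEPR+ minus LEPR- was 1.25 ± 1.23 in young mice (edgeR adjusted p 0.868) and -0.58 ± 0.92 in middle-aged mice (adjusted p 1), and the difference between the ages in this value was -1.84 ± 1.53 (adjusted p 0.900).

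The 3 alpha chains that pair with Itgb1 made up different shares of their summed level per kilobase from library to library. Among middle-aged mice Itga6 held a median of 57.0% (33.2 to 68.7%) in LEPR+ and 49.7% (8.40 to 62.7%) in LEPR- libraries. Among young mice it held 36.6% (23.7 to 59.1%) and 51.4% (0 to 61.9%). Itga4 held a median between 17.1 and 26.2% in each group, and reached 100% in the young LEPR- library of mouse 2, where Itga5 and Itga6 had no count. The shares of every group overlapped with those of the others. Shares rest on the gene length used: with canonical transcripts the median share of Itga6 was 70.1%, 64.4%, 51.8% and 66.9% in the same order of groups.

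Cxcr4, the receptor for the stromal chemokine Cxcl12 (ENSMUSG00000045382.7, chr1:128515936-128520044, minus strand), was low in all groups. Young LEPR+ libraries had 2.33, 2.42, 2.74 and 0.548 CPM, young LEPR- libraries 14.2, 0.736, 0.288 and 2.91 CPM, and middle-aged libraries between 0.142 and 3.84 CPM. The LEPR+ and LEPR- medians were 2.37 and 1.82 CPM for young mice and 1.36 and 1.32 CPM for middle-aged mice, and all 4 ranges overlapped. The young LEPR- library of mouse 1 was the highest, and the log2 age difference in LEPR- HSCs of -1.36 ± 0.97 (edgeR adjusted p 0.403) was 0.37 without it. The log2 LEPR difference in young mice was -1.17 ± 1.14 with that library and 0.61 without it, and was not called either way. Over the group, 241 counts in the young LEPR+ libraries and 316 in the middle-aged LEPR+ libraries stood behind these levels. Of 18 tested genes of Cxcr4 signalling and turnover, 0 were called in any of the 5 comparisons, and the smallest p in the LEPR- age comparison belonged to Elmo1, which links the receptor to Rac (log2 fold change 2.25, edgeR adjusted p 0.0780). Cxcl12 itself had 216 CPM in 1 young LEPR+ library (mouse 4) and between 0 and 24.3 CPM in the middle-aged libraries. In the same library the summed level of 10 markers of LEPR+ stroma, a list that holds Cxcl12, was 292 CPM. The part of stroma in the receptor levels was not tested.

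Cd44, the hyaluronan receptor (ENSMUSG00000005087.18, chr2:102641486-102732010, minus strand), and Selplg, the core protein that selectins bind (ENSMUSG00000048163.14, chr5:113956597-113970705, minus strand), varied least. The biological coefficient of variation fitted by edgeR was 0.441 for Cd44 and 0.419 for Selplg, at the 10.4th and 8.97th percentile of all tested genes, whose median was 1.26. It was 1.94 for Itgal and lay between 0.634 and 1.11 for the other 6 receptors. Cd44 had 138, 171, 184 and 105 CPM in young LEPR+ and 140, 41.1, 230 and 168 CPM in young LEPR- libraries, beside medians of 107 (42.1 to 193) in middle-aged LEPR+ and 109 (95.8 to 147) in middle-aged LEPR- libraries. Selplg had 105, 31.3, 129 and 172 CPM in young LEPR+ and 42.4, 97.4, 133 and 103 CPM in young LEPR- libraries, beside medians of 126 (94.8 to 198) and 126 (89.7 to 163) in middle-aged LEPR+ and LEPR- libraries. For Cd44, 3 of 7 middle-aged LEPR+ libraries lay below and 1 above all young ones, and all 7 LEPR- libraries lay inside the young range. For Selplg, 1 of 7 LEPR+ and 2 of 7 LEPR- libraries of middle-aged mice lay above all young ones and 0 below. These counts, too, have no background from all tested genes.

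For this pair the data set fairly close bounds on a difference between fractions. In middle-aged mice the LEPR+ to LEPR- ratio of Selplg was 1.04 (95% interval 0.679 to 1.60) and that of Cd44 0.927 (0.587 to 1.47). In young mice the intervals were 0.657 to 2.05 for Selplg and 0.564 to 1.89 for Cd44. Between ages the fold was 1.21 (0.726 to 2.01) in LEPR+ and 1.34 (0.805 to 2.24) in LEPR- HSCs for Selplg, and 0.715 (0.421 to 1.21) and 0.797 (0.468 to 1.36) for Cd44. For Itga5 in young mice, in contrast, the interval ran from 0.408 to 13.96, so that even large differences were not detectable. A p that misses the threshold does not show equal levels.

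**Figure D4:**
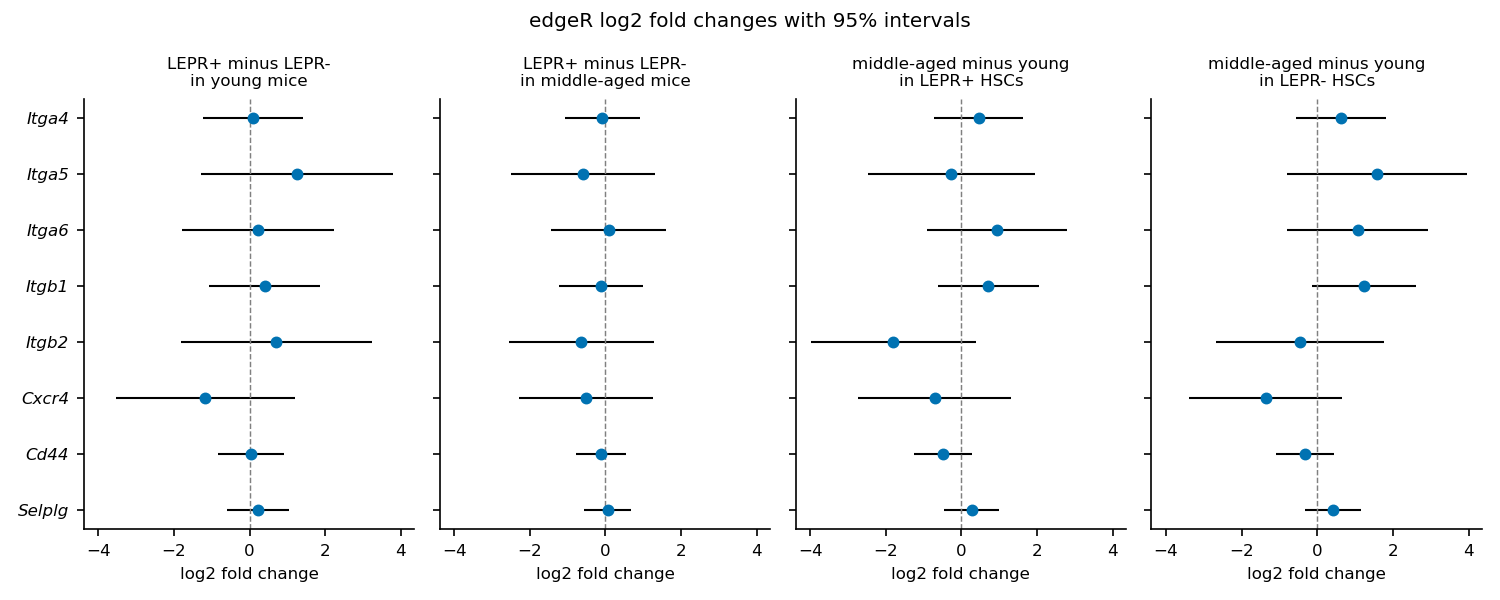
edgeR log2 fold changes (points) with 95% intervals (lines) of 8 receptors in the 4 comparisons of groups; Itgal is left out because its young groups hold 1 count each. All 32 intervals include 0, and those of Selplg and Cd44 are the narrowest.

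The 9 receptors are set beside all tested genes by their median. How often libraries of any tested gene lay above or below all young ones was not counted, so those counts have no such background. The median log2 fold change of the 9 was 0.21 against 0 for all tested genes between young fractions, -0.13 against 0.01 between middle-aged fractions, 0.27 against 0.25 between ages in LEPR+ HSCs and 0.63 against 0.33 between ages in LEPR- HSCs. For the difference of the LEPR effect between ages the median of the 9 was -0.18, against 0.01. Another scaling moves all age values together: the median of all genes in LEPR- HSCs shifted by 0.13 with RLE and by -0.12 with upper-quartile scaling, and in LEPR+ HSCs by 0.09 and -0.17. In LEPR+ HSCs the genes called between ages were 28 higher and 2 lower, and 25 higher and 9 lower with upper-quartile scaling. The 5 comparisons share libraries, so their values are not independent of each other. Positive values had 7, 2, 5, 6 and 1 of the 9 in these 5 comparisons. Library drop-out touched the receptors too: apart from Itgal, 3 counts or fewer were found for Itga5, Itga6 and Itgb2 in the young LEPR- library of mouse 2, Itga5 in that of mouse 3, and Itgb2 and Cxcr4 in the middle-aged LEPR+ library of mouse 6. Among the 9, the strongest rank correlation of log2(CPM + 0.5) over the 22 libraries was that of Itga4 with Itga6 (Spearman's rho 0.65) and the most negative that of Itga4 with Cd44 (-0.53).

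The gene most like each receptor over the 22 libraries was named by Spearman's rho, among tested genes whose mean reached 10 CPM. It was Spag9 for Itga4 (rho 0.84), Hcfc1r1 for Itga5 (0.75), Tet3 for Itga6 (0.87), Golm1 for Itgal (0.85), Sbds for Itgb1 (0.88), Retreg3 for Itgb2 (0.78), Cptp for Cxcr4 (0.71), Pck2 for Cd44 (0.79) and Esam, a cell adhesion molecule of endothelium and HSCs, for Selplg (0.86). These are the highest of about 9027 values each, over libraries that share groups and drop-out, and are given as a description.

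Among the other genes of the pathway, 4 were called, all higher in middle-aged than in young LEPR- HSCs. By list these were 1 of 9 tested niche ligands (Selp), 1 of 22 other adhesion and homing molecules (Kit), 1 of 11 other integrin chains (Itgae) and 1 of 31 genes of integrin activation and linkage to actin (Fermt2). Of 12 tested genes that make selectin ligands 0 were called, and the smallest p was that of the sialyltransferase St3gal4 (log2 fold change -1.11, edgeR adjusted p 0.0853). In the other 4 comparisons 0 genes of the 6 lists were called. For comparison, 3.31% of all tested genes were called higher in the LEPR- age comparison. A single call in lists this small is no result about the lists.

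Selp, the gene of P-selectin, whose ligand is the product of Selplg, had higher levels in the middle-aged libraries of both fractions (chr1:163942833-163977595, plus strand). Young LEPR- libraries of mice 1 to 4 had 38.97, 0.0490, 22.1 and 53.2 CPM and middle-aged LEPR- libraries ran from 157 over a median of 295 to 425 CPM. Young LEPR+ libraries had 31.7, 4.21, 12.8 and 53.6 CPM and middle-aged LEPR+ libraries ran from 246 over a median of 315 to 532 CPM. In both fractions every middle-aged library was above every young one, and how many of all tested genes did the same was not counted. The log2 fold change was 3.40 ± 0.87 in LEPR- HSCs (edgeR adjusted p 0.0356) and 3.72 ± 0.88 in LEPR+ HSCs (adjusted p 0.0752, not called). In LEPR+ HSCs it was called when the 2 groups were fitted alone, without mouse 6 and the LEPR+ library of mouse 5, and by DESeq2. In LEPR- HSCs it was not called with drop-out share as a covariate (log2 2.55, adjusted p 0.319), with the 2 groups alone (0.0631), with no filter (0.0544), or without any 1 of 5 LEPR- libraries (mice 1, 3, 7, 8 and 11, adjusted p 0.0522 to 0.0896).

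P-selectin is also made by megakaryocytes and endothelium, and markers of both were measured. The summed level of 10 megakaryocyte and platelet markers was 399 to 1045 CPM in young and 255 to 626 CPM in middle-aged LEPR- libraries, and 254 to 454 and 190 to 480 CPM in LEPR+ libraries, so that the summed list was not higher in middle-aged mice. Of its genes Gp1ba was called higher in middle-aged LEPR- HSCs, with 1 count in the young and 4265 in the middle-aged group. Gp1ba passed the filter on low counts through middle-aged libraries, and was then tested for being higher there. The summed level of 8 endothelial markers was 49.5 to 102 CPM in young LEPR- and 115 to 234 CPM in middle-aged LEPR- libraries, without overlap, and Kdr was called, with 0 and 3908 counts. With 0 young LEPR- counts, Kdr could only be called higher. In LEPR+ libraries the endothelial sum overlapped, at 49.4 to 281 CPM in young and 74.3 to 344 CPM in middle-aged mice. The list shares Pecam1 and Emcn with the list of other adhesion and homing molecules of HSCs, so its sum does not measure endothelium alone. In middle-aged LEPR- libraries 4 of its 8 genes had a median under 1 CPM. Cdh5 was at 0 in all middle-aged LEPR+ libraries. The part of either cell type in the Selp difference was not tested. The antisense gene Gm16548 overlaps 20.8% of the exons of Selp, which leaves its count uncertain as well.

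Kit, the receptor that tethers HSCs to membrane-bound stem cell factor, had 417, 229, 231 and 357 CPM in young LEPR- libraries, against 400 to 1045 CPM with a median of 797 in middle-aged LEPR- libraries. The groups overlapped through mouse 1 and mouse 6. The log2 fold change was 1.25 ± 0.31 (edgeR adjusted p 0.0319), and the surface protein was a gate of the sort. With drop-out share as a covariate it was 0.15 (adjusted p 1), and leaving out any 1 of 5 LEPR- libraries (mice 2, 3, 4, 7 and 8) ended the call at 0.0511 to 0.104.

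Itgae, an integrin alpha chain that pairs with Itgb7, and Fermt2, a kindlin that activates integrins, had no count in any of the 8 young libraries. Both thus passed the filter on low counts only through middle-aged libraries, and were then tested for being higher there. Itgae had 491 counts in middle-aged LEPR- libraries, above 3 counts in 6 of 7, and 161 in LEPR+ libraries, above 3 in 4 of 7. Fermt2 had 728 and 1172 counts, above 3 in 5 of 7 LEPR- and 6 of 7 LEPR+ libraries. The pooled level of Itgae in middle-aged LEPR- HSCs was 75.6 times a floor of 3 counts over the pooled young libraries. Its age difference had an edgeR adjusted p of 0.0464. Fermt2 stood at 112 times the floor (edgeR adjusted p 0.0397). In LEPR+ HSCs the values were 22.8 and 166 times, and edgeR did not call the age differences (adjusted p 0.138 and 0.0887). These folds cover counting error at most and are no bound over mice or libraries. In young LEPR- libraries the drop-out share was 14.7 to 27.6%. The LEPR- call of Itgae was lost without any 1 of 10 of the 11 LEPR- libraries (all but that of mouse 6; adjusted p 0.0575 to 0.0986), and that of Fermt2 without any 1 of 8 (mice 1 to 4 and 8 to 11; 0.0509 to 0.0840). With drop-out share as a covariate the fitted log2 fold change of Itgae went from 9.32 to 5.42 (adjusted p 0.417) and that of Fermt2 from 9.60 to 9.50 (adjusted p 0.151), values that depend on the prior count.

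**Figure D5:**
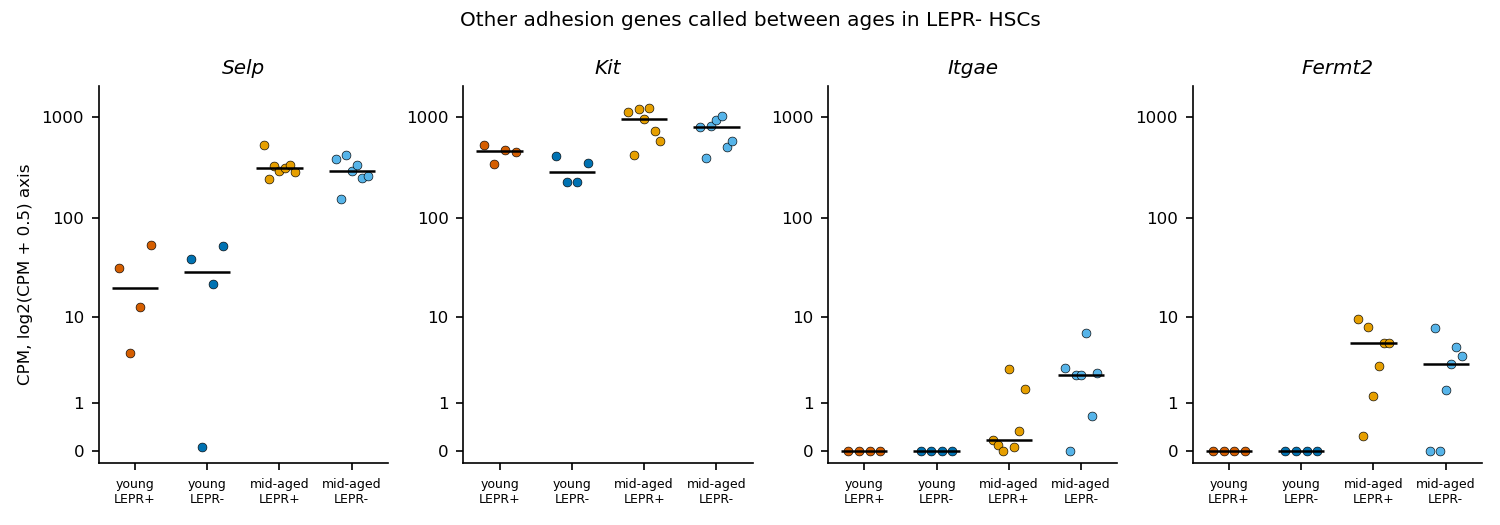
CPM of Selp, Kit, Itgae and Fermt2 in each library by group on a log2(CPM + 0.5) axis, with medians of the log values as bars. Every middle-aged library lies above every young one for Selp, and the 8 young libraries are at 0 for Itgae and Fermt2.

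The genes with the smallest p of each list in the other comparisons did not pass the test. Between young fractions these were Itga3 (59.6 CPM in the LEPR+ library of mouse 1 and 0 in the other 7 young libraries; edgeR adjusted p 0.115), Rap1b, a switch of integrin activation (log2 fold change -1.79, adjusted p 0.168), Pik3r5 (-7.96, 0.194), St3gal4 (-1.01, 0.245), S1pr1 (1.12, 0.485) and Lama5 (-2.50, 0.662). Between middle-aged fractions they were Itgae (-1.84), Itgb1bp1 (0.57), Cd164 (-0.39), Fut7 (0.79), Cd82 (-0.58) and Lama4 (-1.25), all with an edgeR adjusted p of 1. In LEPR+ HSCs between ages they were, beside Itgae, Fermt2 and Selp, the kinase Grk3 that desensitises chemokine receptors (log2 fold change 4.77, edgeR adjusted p 0.190), the chaperone C1galt1c1 of O-glycan synthesis (-0.59, 0.573) and Cd34, a sialomucin of stem cells and vessels (-1.32, 0.101). Cd34 had 228 to 577 CPM in the 4 young LEPR+ libraries and 70.4 to 301 CPM in the 7 middle-aged ones. For the difference of the LEPR effect between ages they were Itga3 (-11.85), Itgb1bp1 (1.65), Pik3r5 (5.89), St3gal4 (1.27), Cd82 (-1.23) and Cxcl12 (-5.02), with edgeR adjusted p between 0.183 and 0.805.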

How the data were processed

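The authors deposited 1 file of raw counts per library, with whole numbers of reads for 55416 mouse Ensembl genes. Per the submitters' processing notes, FastQC, cutadapt, STAR, HTSeq and DESeq2 and the build GRCm39 (mm39) were used; their versions, the strand setting and the release of the annotation are not given in the sources used here. The summary lines at the end of each file, 29.1 to 40.3% of its records, were left out of library sizes and tests. Symbols, coordinates and exon lengths came from GENCODE vM39 on GRCm39, and 54749 identifiers matched.

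Genes were kept by filterByExpr (minimum count 10, minimum total 15), scaled by TMM and tested in R 4.3.3 with edgeR 4.0.16 (quasi-likelihood F test) over all 22 libraries, 1 coefficient per group, with Benjamini-Hochberg adjustment over 17366 genes. The code was tested on simulated counts. Levels are CPM of the effective library size, and log values of single libraries use a pseudocount of 0.5 CPM. A count of 0 allows up to 3 counts, or 0.0486 to 0.291 CPM. Floors and counting intervals cover counting error at most. The labels give both fractions of 1 mouse the same number; their deviations from group means correlated at r 0.0402 to 0.656, and 10 of 11 mice matched their own fraction best. No pair of libraries held identical counts.

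The receptors, pathway lists and markers were chosen with earlier results of these data known. All 9 receptors are reported in every comparison; per pathway list, called genes are named and otherwise the gene with the smallest p. Alternatives were RLE and upper-quartile scaling, no filter, a covariate for sex or for drop-out share, the 2 groups alone, the mouse as a block, each library left out, 3 libraries left out, and DESeq2 1.42.0.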

Additional observations from a re-analysis of the deposited data

Results flagged for a closer look

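Single libraries lay far from the rest of their group, by Dixon's criterion on CPM, in 8 of the 36 groups of 4 or 7 libraries examined (9 receptors in 4 groups); chance flags about 1 in 20. Itga6 had 131 CPM in the young LEPR+ library of mouse 1, where the next library had 59.0 CPM, and 10.9 CPM in the middle-aged LEPR- library of mouse 6, where the next had 131 CPM. Itga5 had 74.0 CPM in the middle-aged LEPR+ library of mouse 7, above the next at 36.6 CPM. Itgb2 had 58.3 CPM in the middle-aged LEPR- library of mouse 6, above the next at 35.01 CPM, although the LEPR+ library of the same mouse was the lowest of its group. Selplg had 198 CPM in the middle-aged LEPR+ library of mouse 5, above the next at 133 CPM. Itgal had 11.4 CPM in the middle-aged LEPR- library of mouse 5, above the next at 3.40 CPM. In young mice Itgal stood out only because 1 library of each fraction held a single count, at 0.0315 CPM in the LEPR+ library of mouse 1 and 0.0361 CPM in the LEPR- library of mouse 3, which is below the level that a count of 0 allows.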

How the results depend on the processing

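Log2 fold changes of the receptors kept their direction and their side of the threshold in 551 of 594 fits that left out 1 library and in 365 of 394 other alternatives; the others changed direction (43 and 26), except 3 calls of Itgal gained. The cause was not tested. Receptors called numbered 1 (Itgal) by DESeq2 in each age comparison and without both libraries of mouse 6 and the LEPR+ library of mouse 5 in LEPR- HSCs.

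With the mouse as a replicate block, 25 genes were called between young fractions (24 higher), 1 between middle-aged fractions and 7 for the difference between ages, and no receptor. The paired fit turned Itgb1 in young mice to -0.30, and the difference between ages to 0.21 for Itgb1 and -0.40 for Cxcr4; it changed no other direction and no call of a receptor. With block and drop-out share, 1 and 0 genes were called (young fractions, difference), Itgb2 and Cd44 were -1.03 and -0.33 in young mice, Itga5, Cxcr4 and Selplg 0.021, 0.015 and -0.083 in middle-aged mice, and Itgal, Itgb2 and Cd44 9.28, 0.49 and 0.23 for the difference. No paired analysis was possible between ages because equal replicate numbers there are different mice.

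Genes called between young fractions, between ages in LEPR+, between ages in LEPR- and for the difference numbered 243, 111, 167 and 70 with drop-out share as a covariate (97, 45, 87 and 40 of them higher), and 1936, 1864, 3510 and 1416 with DESeq2. With no filter they were 61, 13 and 239 in the first 3; with the groups alone 0 and 14 in the first 2; and without mouse 6 and the LEPR+ library of mouse 5 they were 984, 2572 and 91 in the last 3. Leaving out 1 library gave 82 to 186, 12 to 112, 280 to 1668 and 31 to 114.

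Drop-out share as a covariate turned Itga4 (-1.05) and Itga6 (-0.60) in young mice, Itga4 (0.095) in middle-aged mice, Itga4 between ages in LEPR+ (-0.51) and LEPR- HSCs (-1.65), Itga6 in LEPR- HSCs (-0.87), C1galt1c1 in LEPR+ HSCs (0.0028), and Itga4 (1.14), Itga6 (1.07) and Itgal (2.83) for the difference. Itgal in young mice, with 1 count a group, was 0.040 with RLE, 0.018 with no filter, 1.46 with sex and 0.21 with DESeq2. Without mouse 6 and the LEPR+ library of mouse 5, Itga6 was -0.11 and Selplg -0.091 between middle-aged fractions.

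Ranges over single libraries left out that crossed 0 were, between young fractions, -0.12 to 0.32 (Itga4), -0.18 to 1.21 (Itga6), -1.74 to 1.73 (Itgal), -0.75 to 0.76 (Itgb1), -1.52 to 0.61 (Cxcr4), -0.24 to 0.37 (Cd44) and -0.10 to 0.50 (Selplg). Between middle-aged fractions they were -0.29 to 0.12 (Itga4), -0.12 to 0.19 (Itga6), -2.23 to 0.13 (Itgal), -0.33 to 0.082 (Itgb1), -0.32 to 0.029 (Cd44) and -0.066 to 0.13 (Selplg). Between ages they were -0.61 to 0.21 (Itga5) and -0.046 to 0.55 (Selplg) in LEPR+, and -0.88 to 0.082 (Itgb2) and -1.77 to 0.37 (Cxcr4) in LEPR- HSCs. For the difference they were -0.38 to 0.046 (Itga4), -1.12 to 0.28 (Itga6), -2.88 to 0.60 (Itgal), -0.87 to 0.63 (Itgb1), -1.14 to 0.99 (Cxcr4), -0.47 to 0.14 (Cd44), -0.43 to 0.17 (Selplg), -12.35 to 0.039 (Itga3) and -1.09 to 8.28 (Pik3r5). Depth limits Itgal and Cxcr4 most, at 869 and 1545 counts over all libraries.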
